A study of Mus musculus with 10 samples.

Results

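The Hox transcription factors were described in squamous cell carcinoma (SCC) of the mouse lung and in normal lung. Members were the genes of the deposited count table whose symbol is Hox, a cluster letter from a to d and a paralog number, which gave 39 of 24421 genes. Of these, 15 had enough reads for a test of the groups and 24 did not. Antisense and host transcripts of the clusters carry other symbols and were kept apart.

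The 5 SCC libraries came from tumours of wild-type NIH Swiss mice given NTCU, a nitrosourea carcinogen, and the 5 normal lung libraries from untreated wild-type mice of the same stock. Regions were cut by laser from fixed, paraffin-embedded tissue, so each library holds every cell type inside the captured area, and the total RNA was made into stranded libraries for very low input. The libraries are named SCC 1 to SCC 5 and normal 1 to normal 5, numbers that serve as names only and pair nothing. Ages are not stated in the labels, nor are libraries tied to animals. The p-values thus reflect how the libraries of a group vary, in part perhaps for technical reasons, and would be too small if an animal gave more than 1 region.

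Hox genes encode homeodomain proteins that bind DNA together with Pbx and Meis family partners. They stand in 4 clusters, and along each cluster the low paralog numbers are used early and towards the head of the embryo and the high numbers later and towards the tail. In the lung, genes of the anterior and central groups are active in the mesenchyme that guides branching, and mouse Hoxa5 is needed for normal development of the airways. Polycomb proteins keep the clusters silent in cells that do not use them, and retinoic acid switches on their anterior ends.

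Depth and the level of silent genes differed between libraries, and both bear on genes as weakly counted as these. SCC libraries held 1004105 to 3691806 counts, against 1457641 to 6817106 in normal lung. The signal on 1454 chemosensory receptor genes (olfactory, vomeronasal and trace amine receptors, which lung is not known to use) in SCC 1 to SCC 5 was 3.22, 0.583, 3.26, 3.48 and 0.416 CPM per kb of coding length. In normal 1 to normal 5 it was 0.0395, 0.155, 0.0422, 0.0671 and 0.198 CPM per kb. The groups did not overlap (exact two-sided permutation test, p = 0.00794, the smallest that 252 relabelings allow). The captured tissue carried the markers of its label, since 10 of 10 squamous and basal epithelial markers were higher in SCC and 9 of 10 alveolar and airway markers were lower by edgeR's quasi-likelihood test with Benjamini-Hochberg adjustment.

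Most Hox genes were counted in SCC at about the level of other embryonic homeobox genes. In normal lung 13 to 19 of the 39 stood more than 3 times above that level. The gauge was the median of 46 such homeobox genes, most of which adult lung is not known to use, in CPM per kb of exon. The median of the 39 Hox genes was 8.40, 1.55, 6.26, 7.97 and 1.24 CPM per kb in the tumour libraries in order, and 0.202, 0.636, 0.363, 0.514 and 0.683 CPM per kb in normal lung. The homeobox median was 5.07, 1.57, 5.26, 7.36 and 1.40 CPM per kb in the tumour libraries, and 0.179, 0.363, 0.125, 0.212 and 0.387 CPM per kb in normal lung. Both medians were higher in every SCC library than in every normal one, and in SCC they lay close together except in SCC 1. Hox transcripts had a median GC content of 53.7%, against 58.1% for the other homeobox transcripts and 42.3% for receptor transcripts, and the part of base composition in these levels was not tested.

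The number of Hox genes standing more than 3 times above the homeobox median was 11, 4, 1, 1 and 8 in SCC 1 to SCC 5. In normal 1 to normal 5 it was 13, 15, 19, 18 and 18. The homeobox median was so low in normal lung that few reads could pass this level. Hoxa6 stood at 6.24 times in normal 4 with 3 reads, and Hoxa13 at 7.19 times in normal 2 with 5 reads. In SCC 2 the genes above that level were Hoxa3, Hoxa5, Hoxb2 and Hoxb3.

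**Figure D1:**
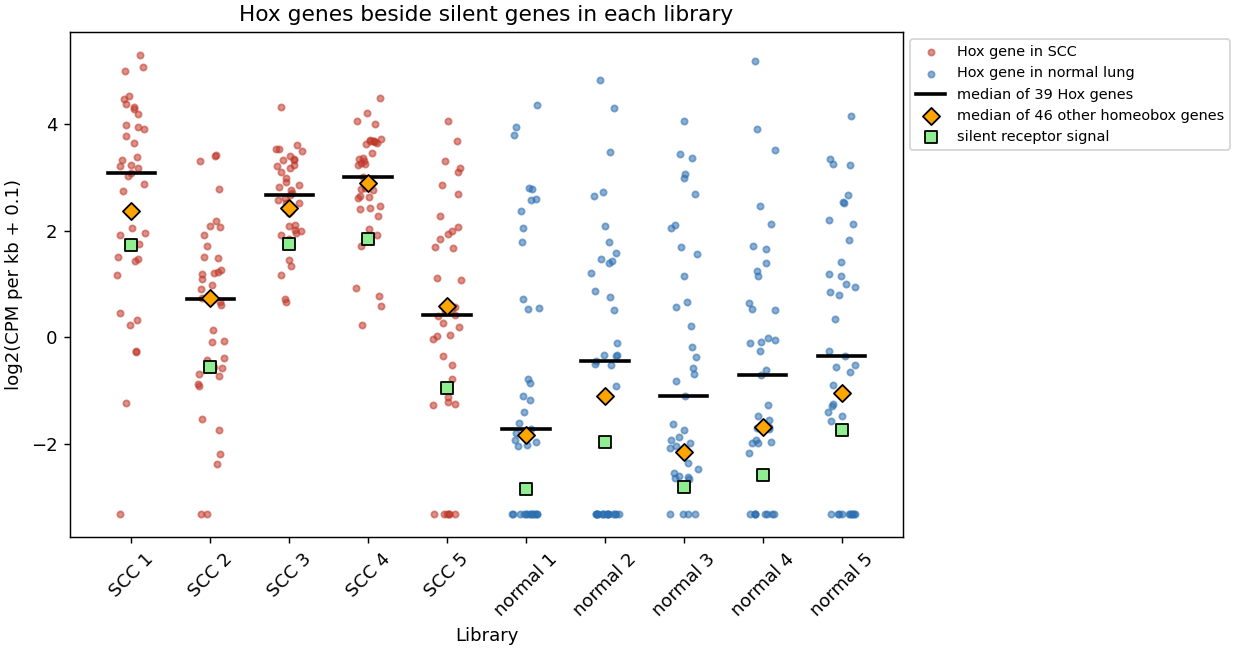
Level of each of the 39 Hox genes in each library (points, log2 of CPM per kb of exon plus 0.1), SCC left and normal lung right, with the Hox median (bar), the median of 46 other homeobox genes (diamond) and the silent receptor signal (square). In SCC the bars lie close to the diamonds, at 1.24 to 8.40 and 1.40 to 7.36 CPM per kb, while in normal lung both lie below 0.7 and single Hox genes stand far above them.

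Detection differed in the same direction. With every library reduced to 1004105 counts, 37.8, 32.0, 38.9, 39 and 30.1 Hox genes were expected to show a count in SCC 1 to SCC 5, against 19.2, 22.2, 21.1, 23.5 and 26.6 in normal 1 to normal 5. Of the 46 other homeobox genes, 38.1 to 46 were expected to show one in SCC libraries and 18.5 to 26.3 in normal lung. Of the receptor genes, 23.4% to 81.5% showed a count in SCC libraries and 4.29% to 12.7% in normal lung at that depth. More Hox genes with a read in SCC thus went along with more reads on silent genes of other families.

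Summed over the family, Hox reads came to 932, 204, 575, 726 and 281 CPM in SCC 1 to SCC 5, against 248, 284, 184, 250 and 223 CPM in normal 1 to normal 5. A background at the receptor rate over the exon length of the 39 genes would account for 29.7%, 24.6%, 48.8%, 41.2% and 12.8% of these sums in SCC 1 to SCC 5. At the homeobox median it would account for 46.8%, 66.2%, 78.8%, 87.3% and 42.9%. In normal lung those shares were 1.37% to 7.65% at the receptor rate and 5.84% to 14.9% at the homeobox median. The receptor rate used here is per kb of coding length. Per kb of receptor exon it was 2.18, 0.394, 2.20, 2.35 and 0.281 CPM in SCC 1 to SCC 5, which would give smaller shares. SCC 2 and SCC 5, the tumour libraries with the least receptor signal, had family sums within the normal lung range.

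The clusters differed in how far the groups lay apart. The Hoxa cluster (11 genes, chromosome 6, minus strand) summed to 306, 72.3, 177, 226 and 67.8 CPM in SCC 1 to SCC 5 and to 37.6, 29.4, 76.9, 35.5 and 53.5 CPM in normal 1 to normal 5. The Hoxb cluster (10 genes, chr11:96194316-96368256 on GRCm38, plus strand) summed to 301, 94.3, 170, 222 and 119 CPM in SCC and to 110, 156, 85.2, 137 and 104 CPM in normal lung. Hoxa and Hoxb sums thus overlapped between the groups, and in Hoxb the SCC 2 value lay below 4 of the 5 normal values. The Hoxc cluster (9 genes, chr15:102921103-103036852, plus strand) summed to 179, 19.8, 129, 134 and 55.9 CPM in SCC, all above the 10.4, 8.20, 4.55, 5.79 and 18.5 CPM of normal lung, with SCC 2 close to normal 5. The Hoxd cluster (9 genes, chr2:74668310-74765142, plus strand) summed to 146, 17.9, 99.6, 143 and 37.6 CPM in SCC and to 90.2, 90.2, 17.2, 71.4 and 47.3 CPM in normal lung, where most of it was Hoxd11. Sums over a cluster were not tested.

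**Figure D2:**
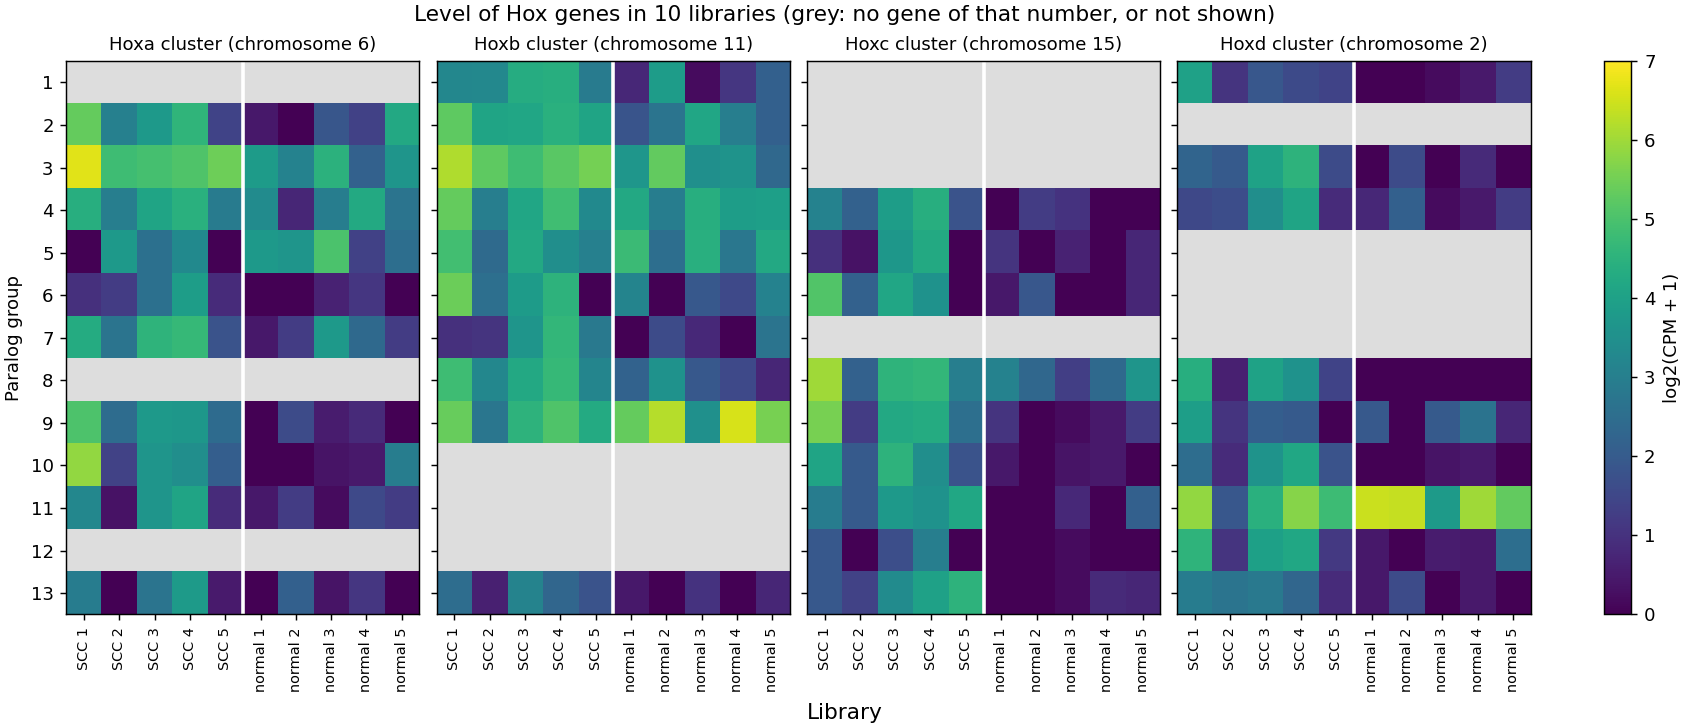
Level of the Hox genes (colour, log2 of CPM plus 1) by cluster, paralog group and library, with SCC libraries left of the white line and normal lung right of it. Hoxb9 and Hoxd11 are the highest genes in every normal library but normal 3, where Hoxa5 is highest at 31.1 CPM. Many other genes lie at or near 0 in normal lung, while in SCC 3 and SCC 4 nearly every gene shows a similar middle level.

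Of the 15 members with enough reads, edgeR's quasi-likelihood test with Benjamini-Hochberg adjustment over all 13203 genes tested called 1 higher in SCC, Hoxa3, where it called 12.5% of all genes tested higher. It called 0 lower, where it called 8.68% of all genes tested lower, and neither count is a result about the family. At an unadjusted p under 0.05 there were 5 higher and 1 lower, Hoxb9, against 18.8% of all genes tested higher and 13.6% lower. DESeq2 called 21 of 39 higher and 0 lower, where it called 27.5% of all genes higher and 5.99% lower. Limma-voom called 8 of 15 higher and 0 lower, where it called 24.7% of all genes higher and 20.9% lower. The median log2 fold change was 1.45 over the 15 and 0.07 over all genes tested, and since members passed the read minimum partly through SCC, the 15 do not stand for the family.

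Hoxa3, an anterior paralog known for its role in pharyngeal arch organs, had 102, 27.4, 29.7, 32.9 and 42.9 CPM in SCC 1 to SCC 5, against 13.2, 7.52, 21.6, 3.47 and 11.7 CPM in normal 1 to normal 5. The mean was 46.9 ± 31.2 CPM in SCC and 11.5 ± 6.79 CPM in normal lung (SD, n = 5 each). The groups did not overlap, with or without SCC 1, which stood far above the other tumour libraries. Every SCC library was above every normal one for 8.81% of all genes tested, and below for 5.77%. The log2 fold change was 1.91 (SE 0.54, adjusted p = 0.0123, edgeR). Relative to the homeobox median, Hoxa3 stood 7.75, 6.73, 2.18, 1.72 and 11.8 times higher in SCC 1 to SCC 5, and 28.5, 7.99, 66.7, 6.32 and 11.6 times higher in normal 1 to normal 5.

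The call on Hoxa3 rests on single libraries and on how silent signal is treated. Its log2 fold change was 1.40 without SCC 1 (adjusted p = 0.0968, edgeR) and 1.51 without normal 4 (adjusted p = 0.0534, edgeR). With SCC 2 and SCC 5 as the tumour group it was 1.51 (adjusted p = 0.229, edgeR). Subtracting a background at the receptor rate gave 2.22 (adjusted p = 0.0194, edgeR), and at the homeobox median 2.20 (adjusted p = 0.0690, edgeR). With the receptor signal as a covariate it was 1.78 (adjusted p = 0.382, edgeR). Of its 6014 bases of annotated exon, 1529 lie under opposite-strand transcripts, Hoxaas2 and Hoxaas3 among them, and 482 under transcripts of the same strand. Reads from these cannot be told apart from Hoxa3 reads, since the sources used here do not give the strand setting of the counting.

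Promoters are shown for Hoxa3, the member that was called, and for Hoxa5 and Hoxd11, whose levels in normal lung stood far above silent genes. Each runs from 250 bases before to 50 bases after a RefSeq transcript start (GRCm38.p6), 5′ to 3′ on the gene's strand, with CG dinucleotides in capitals. CpG-rich promoters of this kind are the ones Polycomb proteins occupy when a Hox gene is silent. Hoxa3 lies at chr6:52213018-52213317 and Hoxa5 at chr6:52204538-52204837, both on the minus strand. Hoxd11 has starts at chr2:74679308-74679607 and chr2:74682073-74682372 on the plus strand.
Hoxa3: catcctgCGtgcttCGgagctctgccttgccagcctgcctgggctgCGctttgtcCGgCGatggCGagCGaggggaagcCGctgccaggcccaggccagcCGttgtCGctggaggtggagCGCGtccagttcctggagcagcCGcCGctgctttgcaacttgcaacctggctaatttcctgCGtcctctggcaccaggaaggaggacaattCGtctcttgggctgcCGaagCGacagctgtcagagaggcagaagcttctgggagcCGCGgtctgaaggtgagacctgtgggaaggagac
Hoxa5: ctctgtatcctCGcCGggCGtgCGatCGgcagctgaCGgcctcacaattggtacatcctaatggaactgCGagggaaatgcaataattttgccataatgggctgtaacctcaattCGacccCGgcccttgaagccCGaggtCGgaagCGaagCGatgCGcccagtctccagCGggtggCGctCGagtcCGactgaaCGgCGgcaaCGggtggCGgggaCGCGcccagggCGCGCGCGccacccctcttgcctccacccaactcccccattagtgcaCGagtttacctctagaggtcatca
Hoxd11 start 1: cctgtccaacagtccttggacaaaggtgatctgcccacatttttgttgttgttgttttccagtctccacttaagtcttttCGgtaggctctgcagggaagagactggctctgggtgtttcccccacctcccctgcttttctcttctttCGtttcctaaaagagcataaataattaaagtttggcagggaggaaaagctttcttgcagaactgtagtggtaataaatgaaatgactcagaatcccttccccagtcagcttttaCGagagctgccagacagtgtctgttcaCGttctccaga
Hoxd11 start 2: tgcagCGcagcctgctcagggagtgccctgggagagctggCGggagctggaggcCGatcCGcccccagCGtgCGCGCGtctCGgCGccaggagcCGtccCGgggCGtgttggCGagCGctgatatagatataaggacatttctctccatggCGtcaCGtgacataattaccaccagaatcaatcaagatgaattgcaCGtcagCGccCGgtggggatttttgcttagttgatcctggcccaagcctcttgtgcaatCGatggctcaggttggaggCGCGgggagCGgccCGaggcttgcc
The Hoxa3, Hoxa5 and second Hoxd11 windows hold 20, 29 and 25 CG dinucleotides, while the first Hoxd11 window holds 4 and has a GC content of 45.7%. Over the 24 entries of 22 Hox genes the median was 14.5 CG and 57.7% GC, against 7 CG and 52.7% GC over 32851 promoters. The retinoic acid receptor core letters AGGTCA, searched on both strands, occurred in 7 of 24 Hox windows and 16.3% of all windows. The one match in the printed windows is on the plus strand 42 bases after the Hoxa5 start. The Pbx and Hox letters TGATNNAT occurred in 4 of 24 Hox windows and 8.85% of all, once in the printed set, on the minus strand 73 bases before the second Hoxd11 start. TATAAA occurred in 4 of 24 Hox windows and 13.6% of all. A match describes letters and does not show binding.

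Hoxb3, the paralog of Hoxa3 in the Hoxb cluster, had 70.7, 37.6, 27.5, 35.9 and 45.3 CPM in SCC 1 to SCC 5, against 11.8, 38.96, 10.1, 11.2 and 4.12 CPM in normal 1 to normal 5. The overlap came from normal 2 alone, which lay above 3 SCC libraries. The log2 fold change was 1.39 (SE 0.55, adjusted p = 0.0718, edgeR). Hoxb3os, on the opposite strand, covers 2250 of the 4251 exon bases of Hoxb3. Paralog group 3 as a whole, Hoxd3 included, summed to 176, 68.0, 72.7, 90.6 and 90.2 CPM in SCC and to 25.1, 48.5, 31.7, 15.4 and 15.8 CPM in normal lung.

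Hoxb2 and Hoxa2, anterior genes that pattern the hindbrain and the second pharyngeal arch, differed in how even their levels were. Hoxb2 had 37.7, 16.0, 16.5, 20.9 and 15.9 CPM in SCC 1 to SCC 5, against 2.51, 5.47, 16.7, 6.94 and 3.43 CPM in normal 1 to normal 5, overlapping through normal 3. Its log2 fold change was 1.45 (SE 0.68, adjusted p = 0.135, edgeR). With Hoxa3 and Hoxb3, it was one of the 3 genes above 6 times the homeobox median in both SCC 2 and SCC 5, at 6.26 and 7.01 times. Hoxa2 had 39.6, 7.31, 12.7, 22.9 and 1.63 CPM in SCC, against 0.358, 0, 2.64, 1.54 and 17.8 CPM in normal lung. Normal 5 lay above SCC 2, SCC 3 and SCC 5, and the log2 fold change of 1.78 (SE 1) did not pass (adjusted p = 0.228, edgeR).

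Hoxb1, which patterns the hindbrain, had 8.48, 8.67, 19.3, 19.9 and 6.53 CPM in SCC 1 to SCC 5, against 0.716, 13.7, 0.147, 1.16 and 3.43 CPM in normal 1 to normal 5. Normal 2 lay within the SCC range and the other normal libraries below it. The log2 fold change was 1.63 (SE 0.95, adjusted p = 0.247, edgeR).

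Groups 4 and 5 hold the genes best known from lung mesenchyme, and there the groups overlapped widely. Hoxa4 had 19.8, 7.04, 16.0, 20.9 and 6.53 CPM in SCC 1 to SCC 5, against 9.31, 0.683, 6.75, 18.1 and 5.49 CPM in normal 1 to normal 5 (log2 fold change 0.63, SE 0.76, adjusted p = 0.623, edgeR). Hoxb4 had 39.6, 7.04, 16.5, 27.9 and 8.98 CPM in SCC, against 17.5, 6.83, 20.1, 13.9 and 14.4 CPM in normal lung (log2 fold change 0.31, SE 0.62, adjusted p = 0.776, edgeR). Hoxb5, which takes part in branching in the mouse lung, had 28.3, 4.33, 17.6, 9.96 and 7.35 CPM in SCC, against 26.1, 4.79, 20.4, 5.79 and 17.8 CPM in normal lung (log2 fold change -0.27, SE 0.69, adjusted p = 0.832, edgeR). For none of these 3 did the level in one group lie apart from the other.

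Hoxa5 had the fewest SCC reads of the tested members, 65 against 276 in normal lung. It had 0, 12.7, 4.95, 8.96 and 0 CPM in SCC 1 to SCC 5, against 12.9, 11.6, 31.1, 1.54 and 4.80 CPM in normal 1 to normal 5. SCC 1 and SCC 5 held no read, while normal 4, the lowest of its group, lay below the other 3 SCC libraries. The log2 fold change was -1.32 (SE 0.96) and did not pass (adjusted p = 0.372, edgeR). Relative to the homeobox median Hoxa5 stood at 0, 4.32, 0.502, 0.649 and 0 times in SCC, against 38.3, 17.1, 133, 3.87 and 6.62 times in normal lung. Those SCC values place Hoxa5 under the homeobox median in every tumour library but SCC 2. Relative to the receptor signal it stood at 0, 11.6, 0.810, 1.37 and 0 times in SCC 1 to SCC 5. No annotated transcript overlaps its exons.

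Lung mesenchyme markers moved with the groups in the same libraries. Of 16 tested, 14 fell and 1, Gli1, rose by edgeR's quasi-likelihood test with Benjamini-Hochberg adjustment. The same test called 12.5% of all genes tested higher and 8.68% lower. The summed level of 17 markers was 1080 to 1821 CPM in SCC and 5789 to 8236 CPM in normal lung. Macf1, at 2094 to 4023 CPM, and Limch1, at 1086 to 1435 CPM, made up much of the sum in normal lung. In SCC, Macf1 had 306 to 860 CPM and Limch1 had 48.2 to 189 CPM. Smooth muscle markers summed to 143 to 299 CPM in SCC and 608 to 1222 CPM in normal lung, with 5 of 8 lower. The part of cell makeup in the Hox levels was not tested, and in such bulk captures fewer cells of a type and less RNA per cell cannot be told apart.

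**Figure D3:**
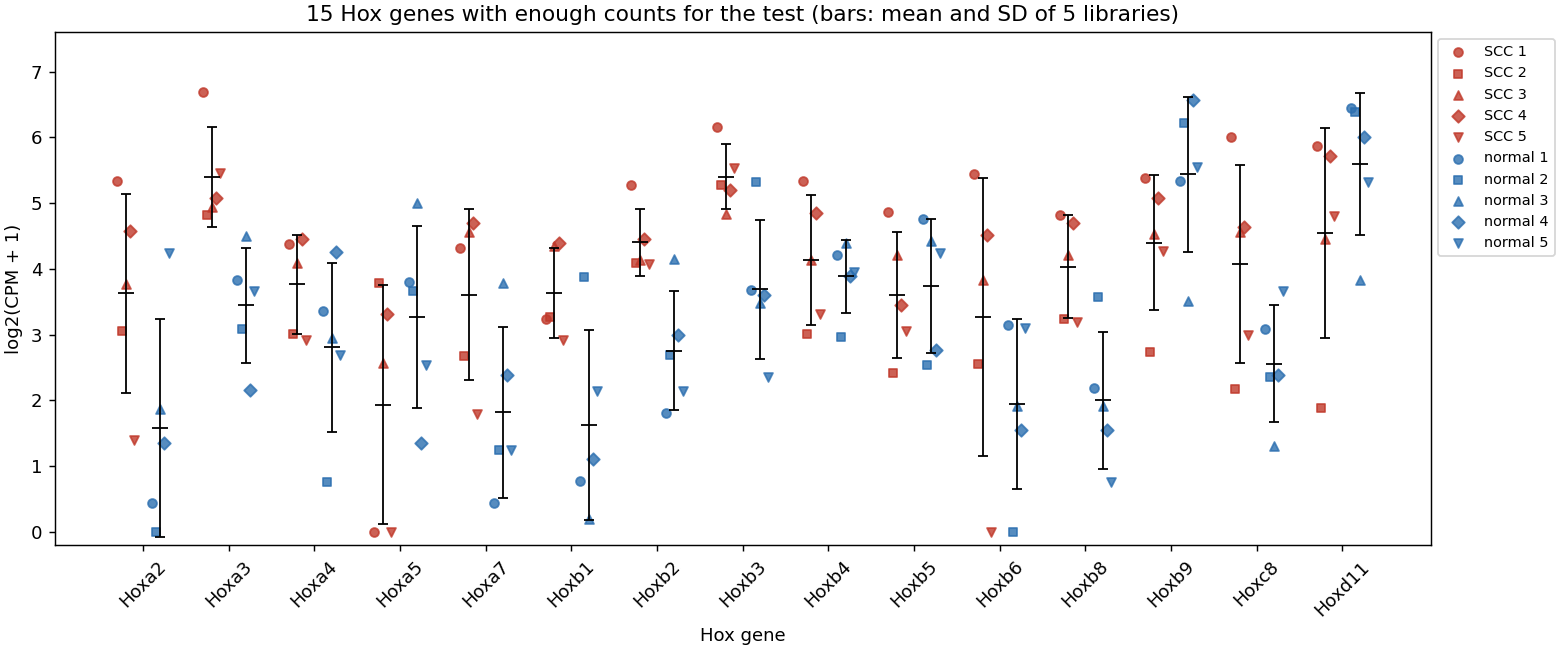
CPM of the 15 tested Hox genes in each library (points), with SCC left of normal lung for each gene and a bar and whisker for each group's mean and SD (n = 5). Hoxa3 has all SCC points, 27.4 to 102 CPM, above the normal ones, 3.47 to 21.6 CPM, whereas most normal points of Hoxb9 and Hoxd11 lie above most SCC points.

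The central groups 6 to 8, which pattern the thoracic region, were low in normal lung and uneven between tumours. Hoxb6 had 42.4, 4.88, 13.2, 21.9 and 0 CPM in SCC 1 to SCC 5, against 7.87, 0, 2.79, 1.93 and 7.55 CPM in normal 1 to normal 5 (log2 fold change 1.88, SE 1, adjusted p = 0.199, edgeR). Hoxa7 had 18.9, 5.42, 22.6, 24.9 and 2.45 CPM in SCC, against 0.358, 1.37, 12.8, 4.24 and 1.37 CPM in normal lung (log2 fold change 1.67, SE 0.89, adjusted p = 0.198, edgeR). Hoxb6 and Hoxa7 overlapped between the groups through SCC 2 and SCC 5, which lay within the range of normal lung in both.

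Hoxb8, known from blood progenitors and microglia, had 27.3, 8.40, 17.6, 24.9 and 8.17 CPM in SCC 1 to SCC 5, against 3.58, 10.9, 2.79, 1.93 and 0.686 CPM in normal 1 to normal 5 (log2 fold change 1.99, SE 0.81, adjusted p = 0.0825, edgeR). Hoxc8, the only tested member of its cluster, had 63.2, 3.52, 22.6, 23.9 and 6.94 CPM in SCC, against 7.52, 4.10, 1.47, 4.24 and 11.7 CPM in normal lung (log2 fold change 1.92, SE 0.78, adjusted p = 0.0855, edgeR). In both genes SCC 1, SCC 3 and SCC 4 lay above every normal library and SCC 2 and SCC 5 did not. With SCC 2 and SCC 5 as the tumour group, the Hoxc8 log2 fold change was -0.22 and that of Hoxb6 was -0.84. Leukocyte markers summed to 292 to 425 CPM in SCC and 545 to 733 CPM in normal lung. Of 9 tested, 0 rose and 3 fell by edgeR with Benjamini-Hochberg adjustment, namely Ptprc, Csf1r and Kit, where 12.5% of all genes tested rose and 8.68% fell. Cd68 and Itgam went the other way without a call, with log2 fold changes of 0.55 and 0.07. Kit alone had 10.2 to 43.3 CPM in SCC and 147 to 240 CPM in normal lung, a large part of the sum there. Its log2 fold change was -2.93. Endothelial markers had a median of -3.48, with 8 of 9 lower. Whether the Kit reads came from leukocytes was not tested.

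Among Hox genes, the posterior genes Hoxb9 and Hoxd11 gave the clearest levels in normal lung, while other posterior genes were low there. They were the highest Hox genes in normal lung per kb of exon, at means of 20.4 and 13.5 CPM per kb. Hoxb5 followed at 7.91, Hoxa5 at 6.60 and Hoxb4 at 5.67 CPM per kb. Together Hoxb9 and Hoxd11 held 10.5%, 4.11%, 7.46%, 11.7% and 16.2% of all Hox reads in SCC 1 to SCC 5, against 50.5%, 54.9%, 12.9%, 63.1% and 38.2% in normal 1 to normal 5. In SCC the order per kb was led by Hoxa3 at 18.1, Hoxb2 at 13.2 and Hoxc8 at 12.9 CPM per kb, with Hoxb9 at 9.28. Neighbours in both orders overlapped between libraries.

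Hoxb9, a gene of the posterior thorax that also acts in mammary gland and vessel growth, had 40.5, 5.69, 22.0, 32.9 and 18.4 CPM in SCC 1 to SCC 5. It had 39.4, 73.1, 10.4, 94.1 and 45.96 CPM in normal 1 to normal 5. Every normal library but normal 3 was above every SCC library but SCC 1. The log2 fold change was -1.31 (SE 0.55, adjusted p = 0.0947, edgeR). Without normal 3 it was -1.65 (adjusted p = 0.0224, edgeR), and without normal 5 it was -1.60 (adjusted p = 0.0401, edgeR). With no minimum on reads it was -1.76 (adjusted p = 0.00480, edgeR), and with SCC 2 and SCC 5 as the tumour group -2.25 (adjusted p = 0.0742, edgeR). Without normal 4 it was -1.13 (adjusted p = 0.183, edgeR). It was -1.28 with DESeq2 (adjusted p = 0.0775, DESeq2 Wald test) and -0.81 with limma-voom (adjusted p = 0.163, limma-voom). Of 21 alternatives, 4 passed and 17 did not.

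Hoxd11, which shapes the forelimb, kidney and lower spine, had 57.5, 2.71, 20.9, 51.8 and 26.9 CPM in SCC 1 to SCC 5. It had 85.9, 82.7, 13.2, 63.3 and 39.1 CPM in normal 1 to normal 5. SCC 2 and normal 3 were the lowest of their groups for Hoxd11 as for Hoxb9. The same held for Lhx5, Lhx9 and Msx2 of the other homeobox genes. In normal lung Lhx5 had 97.1 to 529 CPM, Lhx9 43.7 to 127 CPM and Msx2 19.4 to 138 CPM. In SCC they had 42.3 to 169, 15.2 to 67.9 and 7.31 to 81.1 CPM. Of 13 other homeobox genes tested, 5 rose and 2 fell in SCC by edgeR. The log2 fold change was -0.98 (SE 0.58, adjusted p = 0.251, edgeR), and with no minimum on reads -1.44 (adjusted p = 0.0169, edgeR). The fit with no minimum was the 1 of 21 alternatives in which Hoxd11 passed. Relative to the homeobox median Hoxd11 stood at 2.69, 0.410, 0.944, 1.67 and 4.58 times in SCC, against 114, 54.1, 25.1, 70.8 and 24 times in normal lung. Hoxb9 stood at 3.11, 1.41, 1.63, 1.74 and 5.11 times in SCC, against 85.4, 78.3, 32.5, 172 and 46.2 times in normal lung. These multiples are descriptions, since the homeobox median itself differed between the groups.

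The genes beside Hoxd11 and Hoxb9 did not share their level. Hoxd10 had 3 reads and Hoxd12 had 12 in all normal lung libraries together, against 672 for Hoxd11. Hoxd8 had 66 reads in SCC (95% Poisson interval 51.0 to 84.0) and 0 in normal lung (0 to 3.69). The 14 other genes of groups 9 to 13 summed to 232, 24.4, 148, 157 and 62.5 CPM in SCC 1 to SCC 5, against 5.73, 8.89, 7.33, 12.3 and 19.9 CPM in normal 1 to normal 5. Hoxd9 was the one untested gene whose pooled level was not higher in SCC, at a ratio of 0.98 to normal lung. It had 28 reads of 1.002e+07 counts in SCC and 43 of 1.512e+07 in normal lung. Its mean was 4.30 CPM in SCC and 2.38 CPM in normal lung.

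**Figure D4:**
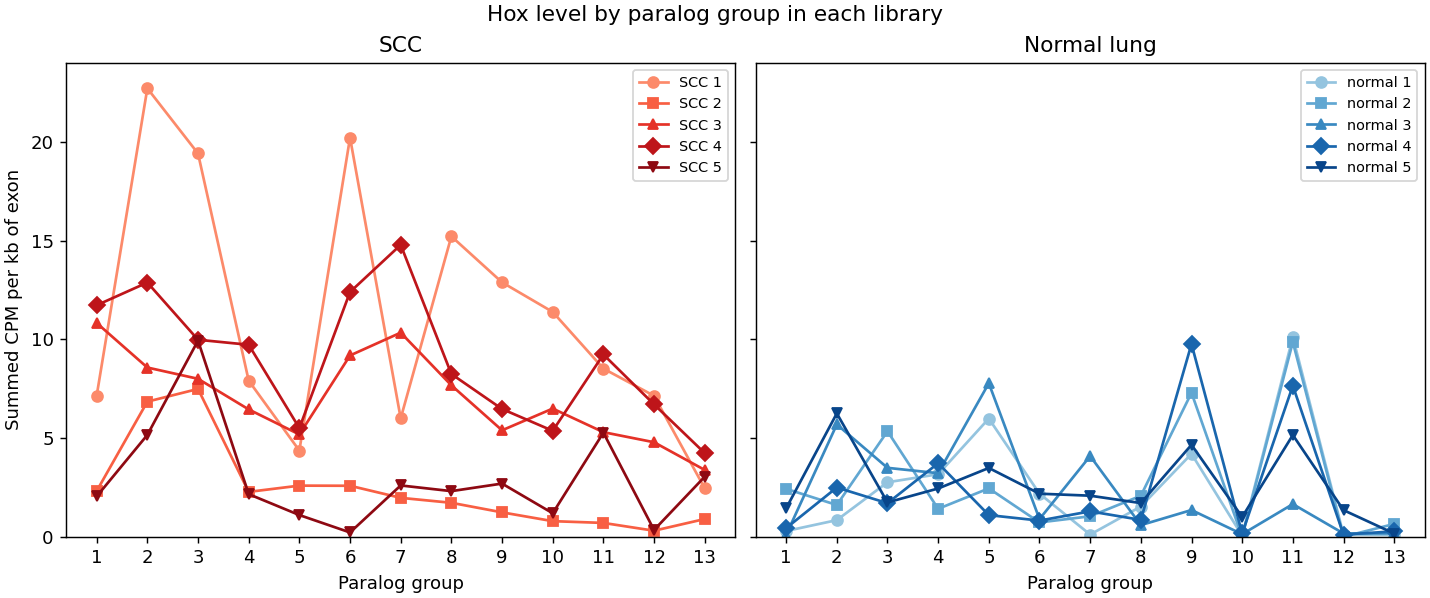
Summed level per kb of exon by paralog group in each library, SCC left and normal lung right, where points of a library are joined. Normal 1, normal 2 and normal 4 peak at group 9 or 11 with 9.77 to 10.1 CPM per kb, while normal 3 peaks at group 5 and normal 5 at group 2, and SCC 2 and SCC 5 peak at group 3 with 7.49 and 9.94 CPM per kb.

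Of the 24 members without enough reads for the test, 23 are described, and these held 14 to 117 reads over the 5 SCC libraries, with a median of 65, and 0 to 43 over normal lung, with a median of 8. Tested members held 61.7% of the Hox reads in SCC and 93.3% in normal lung. For 22 of the 23, the pooled CPM was higher in SCC. In 6 of them every SCC library lay above every normal one, namely Hoxa9, Hoxc4, Hoxc10, Hoxc13, Hoxd8 and Hoxd10. The same held for 11.8% of all 22919 genes with a read, for 9.90% of the receptor genes and for 43.5% of the other homeobox genes. None of the 23 lay below in every SCC library, against 3.34% of all genes with a read.

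By reads in SCC the highest of these were Hoxc9, Hoxa10, Hoxa9, Hoxc13 and Hoxc11. Hoxc9, a thoracic gene, had 117 reads in SCC (95% Poisson interval 96.8 to 140) and 7 in normal lung (2.81 to 14.4). Hoxa9, a regulator of blood stem cells, had 97 reads in SCC (78.7 to 118) and 8 in normal lung (3.45 to 15.8). These intervals cover counting error alone and not the spread between libraries, which was wide.

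Hoxa10, which patterns the uterus and lower spine, showed that spread. It had 57.5, 1.62, 11.6, 9.96 and 3.27 CPM in SCC 1 to SCC 5, against 0, 0, 0.293, 0.386 and 6.86 CPM in normal 1 to normal 5. SCC 1 and normal 5 each stood apart from their group, and SCC 2 and SCC 5 were below normal 5. Hoxc9 was likewise highest in SCC 1, at 46.2, 1.35, 17.6, 18.9 and 4.90 CPM in SCC, against 1.07, 0, 0.147, 0.386 and 1.37 CPM in normal lung. By reads in normal lung the highest untested members were Hoxd9, Hoxb7, Hoxa10, Hoxd12 and Hoxd4, of which Hoxb7 had 65 reads in SCC and 16 in normal lung.

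SCC 1 and SCC 5 shared some and differed in other Hox genes above 3 times the homeobox median. In SCC 1, Hoxa3, Hoxc8 and Hoxb6 stood 7.75, 6.67 and 6.34 times above the homeobox median, with Hoxa2, Hoxa10, Hoxb2, Hoxb3, Hoxb4, Hoxb9, Hoxc6 and Hoxc9 at 3.04 to 4.57 times. In SCC 5, Hoxa3, Hoxb3 and Hoxb2 stood at 11.8, 9.22 and 7.01 times, Hoxc13 and Hoxc11 at 6.42 and 6.08 times, and Hoxb9, Hoxd11 and Hoxb7 at 3.40 to 5.11 times. Hoxa3, Hoxb2, Hoxb3 and Hoxb9 were above that level in both. Hoxc13, which controls hair and nail keratin genes, had 2.83, 1.62, 9.36, 14.9 and 22.1 CPM in SCC 1 to SCC 5, against 0, 0, 0.147, 0.771 and 0.686 CPM in normal 1 to normal 5. Hoxc11 had 6.60, 2.98, 12.7, 10.96 and 17.1 CPM in SCC, against 0, 0, 0.733, 0 and 3.43 CPM in normal lung. Each of these levels is that of 1 library, so they have no replicate, and the genes of this paragraph were picked after their values were seen.

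Taking SCC 2 and SCC 5 as the tumour group turned many fold changes round. Of 18 members then tested, 8 were positive and 10 negative, with a median log2 fold change of -0.17, against 0.01 over all 14305 genes tested. Called members numbered 0 higher and 0 lower by edgeR, where 4.14% of all genes tested were higher and 5.16% lower. Hoxa3 and Hoxb3 kept log2 fold changes of 1.51 and 1.33, while Hoxd11 was at -2.02 and Hoxb9 at -2.25. Members called were also 0 higher and 0 lower with the receptor signal as a covariate, where 3.46% of all genes tested were higher and 2.77% lower, and after subtraction at the homeobox median, where 5.52% were higher and 5.96% lower. After subtraction at the receptor rate Hoxa3 was the 1 member called higher, where 8.35% of all genes tested were higher and 6.94% lower. The comparison with SCC 2 and SCC 5 has 2 tumour libraries, chosen for their low receptor signal, and few reads for most members.

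**Figure D5:**
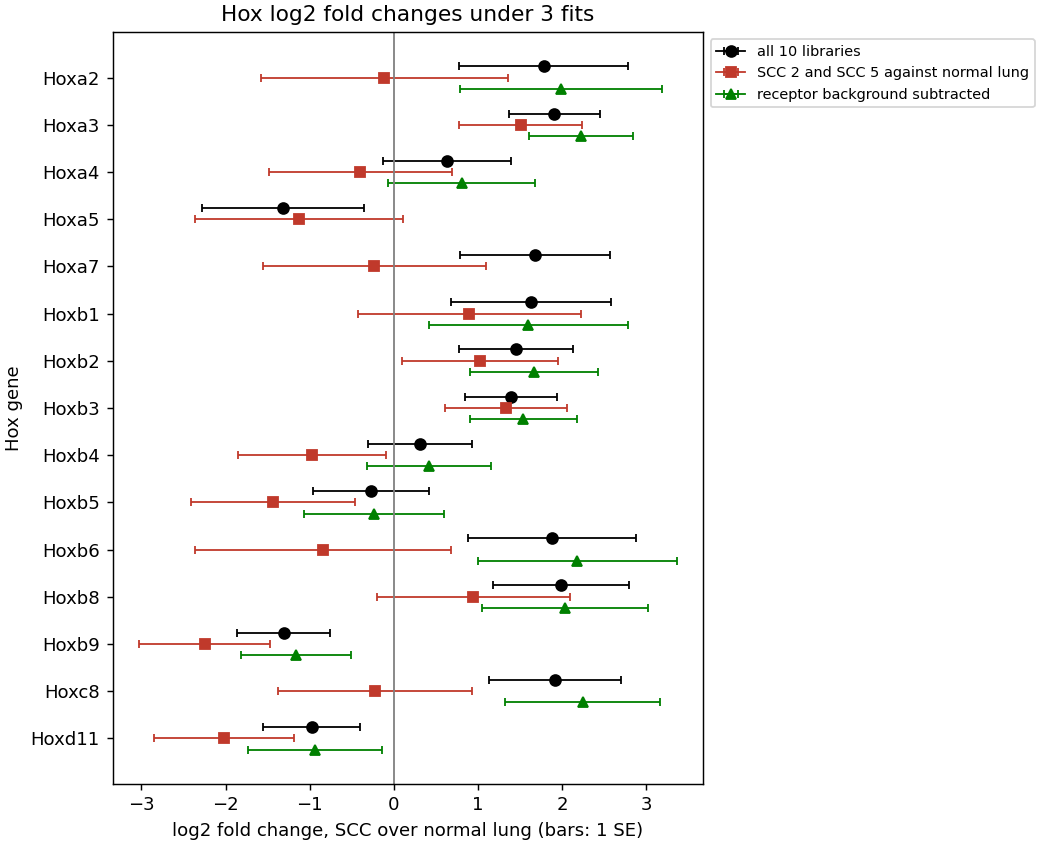
Log2 fold change of SCC over normal lung for the 15 tested Hox genes, with bars of 1 SE, from all 10 libraries, from SCC 2 and SCC 5 against normal lung, and after subtracting a background at the receptor rate. Hoxa3 and Hoxb3 stay between 1.33 and 2.22 in the 3 fits and Hoxb9 and Hoxd11 stay negative, whereas Hoxa2, Hoxa4, Hoxa7, Hoxb4, Hoxb6 and Hoxc8 lie on the other side of 0 with SCC 2 and SCC 5. A gene without a triangle had too few reads left after subtraction.

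Hox cofactors mostly had enough reads for the test, 8 of 9. Of these, 0 rose and 1 fell by edgeR's quasi-likelihood test with Benjamini-Hochberg adjustment, where 12.5% of all genes tested rose and 8.68% fell. At an unadjusted p under 0.05 there were 0 higher and 2 lower, against 18.8% and 13.6% of all genes tested. DESeq2 called 1 of 9 higher and 1 lower, against 27.5% and 5.99% of all genes. Limma-voom called 0 higher and 3 lower, against 24.7% and 20.9% of all genes. The gene that fell was Meis1, a homeodomain partner of Hox proteins, with 56.6, 50.1, 41.8, 65.7 and 56.8 CPM in SCC 1 to SCC 5, against 136, 157, 115, 213 and 189 CPM in normal 1 to normal 5. Its groups did not overlap, and its log2 fold change was -1.71 (SE 0.35, adjusted p = 8.55e-04, edgeR). The median of the 8 was -0.53. Counts of called genes on this list and those below are not read as results about a list.

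Of 28 Polycomb genes tested, 0 rose and 3 fell by edgeR with Benjamini-Hochberg adjustment, against 12.5% and 8.68% of all genes tested. At an unadjusted p under 0.05, 3 were higher and 6 lower, against 18.8% and 13.6% of all genes tested. The median log2 fold change was -0.08. DESeq2 called 3 of 30 higher and 5 lower, against 27.5% and 5.99% of all genes. Limma-voom called 5 of 28 higher and 7 lower, against 24.7% and 20.9% of all genes. Phf1, an accessory subunit that helps the methylating Polycomb complex bind chromatin, fell by 1.45 on the log2 scale (adjusted p = 0.0150, edgeR). Cbx7, a reader of Polycomb methylation, fell by 1.46 (adjusted p = 0.0287, edgeR), and Rybp, a subunit of the ubiquitin-adding complex, fell by 1.22 (adjusted p = 0.0415, edgeR). With SCC 2 and SCC 5 as the tumour group Phf1 was at -1.87 (adjusted p = 0.0327, edgeR), while Cbx7 and Rybp did not pass. After subtraction at the receptor rate Cbx7 (adjusted p = 0.0389, edgeR) and Rybp (adjusted p = 0.0427, edgeR) passed and Phf1 did not (adjusted p = 0.0763, edgeR). Of 14 Trithorax genes and other Hox activators tested, 0 rose and 0 fell by edgeR, with 0 at an unadjusted p under 0.05, while DESeq2 called 2 higher and limma-voom 1 higher and 2 lower. Their median was -0.34.

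Among 12 tested genes of the retinoic acid axis, 2 rose and 3 fell by edgeR with Benjamini-Hochberg adjustment. Over all genes tested, 12.5% rose and 8.68% fell. The median log2 fold change of the 12 was 0.23. Aldh1a3, which makes retinoic acid, had 35.8, 70.4, 33.6, 50.8 and 154 CPM in SCC 1 to SCC 5, against 0.358, 0, 0.293, 0.772 and 2.06 CPM in normal 1 to normal 5. Stra6, which takes up retinol, had 22.6 to 87.8 CPM in SCC and 0 to 2.73 CPM in normal lung. The groups did not overlap for either gene, with log2 fold changes of 6.68 (adjusted p = 5.68e-07, edgeR) and 5.04 (adjusted p = 8.23e-06, edgeR). Aldh1a1, another such enzyme, fell to 10.6 to 154 CPM in SCC, against 344 to 983 CPM in normal lung (log2 fold change -3.46, adjusted p = 5.41e-05, edgeR). The receptor gene Rxrg fell by 1.78 on the log2 scale (adjusted p = 0.00734, edgeR). With SCC 2 and SCC 5 as the tumour group, 3 of 13 tested rose and 0 fell by edgeR. Aldh1a1 was then at -3.01 (adjusted p = 0.0517, edgeR) and Rxrg at -1.81 (adjusted p = 0.0684, edgeR). After subtraction at the receptor rate Aldh1a1 (adjusted p = 8.8e-04, edgeR) and Rxrg (adjusted p = 0.0472, edgeR) passed.

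The neighbours and antisense transcripts of the clusters gave little more. Of 31 transcripts found, 11 were tested, and 0 rose and 1 fell by edgeR with Benjamini-Hochberg adjustment. Over all genes tested, 12.5% rose and 8.68% fell. At an unadjusted p under 0.05 there were 1 higher and 1 lower, against 18.8% and 13.6% of all genes tested. DESeq2 called 9 of 27 higher and 1 lower, and limma-voom 1 of 11 higher and 4 lower. The gene that fell was Calcoco1, a coactivator and autophagy gene, at -1.75 (adjusted p = 0.00222, edgeR). Hoxaas2, which overlaps Hoxa3, had 6.60, 1.35, 12.1, 12.9 and 2.45 CPM in SCC 1 to SCC 5, and in normal lung it had 2.70 CPM in normal 4 and no read in the other libraries. Of the 46 other homeobox genes 13 were tested, of which 5 rose and 2 fell by the same test, Pitx1 furthest with a log2 fold change of 4.94 and Lhx5 lowest with -2.06, and their median was 0.40. DESeq2 called 30 of 46 higher and 2 lower, and limma-voom 5 of 13 higher and 4 lower. Over all genes, DESeq2 called 27.5% higher and 5.99% lower, and limma-voom called 24.7% higher and 20.9% lower.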

How the data were processed

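RNA was measured in 10 laser-captured samples. The authors deposited whole-number read counts per gene symbol, not normalized. The submitters' processing notes list HTSeq 0.6.1, TopHat2 2.0.1, cutadapt 1.9.1 and DESeq2, with build mm10, in no stated order. The annotation, strand setting and handling of reads with several placements were not given in the sources used here. Overlapping Hox genes, such as Hoxd3 and Hoxd4, are therefore uncertain.

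The groups were compared with edgeR 4.0.16 under R 4.3.3 (filterByExpr by group, TMM, robust quasi-likelihood test of SCC over normal lung, Benjamini-Hochberg adjusted p under 0.05 over 13203 genes, no covariate). The SE is the log2 fold change divided by the square root of F. CPM is a gene's count scaled to a fixed library total, and CPM per kb divides by the length of RefSeq-matched exons in GENCODE M21 (24033 genes matched), except for receptors, where coding length was used and the highest 2% of genes in each library were set to the 98th percentile. For shares and subtraction, the receptor rate per kb of coding length was applied to exon length. That rate is higher than the rate per kb of receptor exon. Reduced-depth counts are expectations under sampling without replacement. Alternatives used DESeq2 1.42.0, limma 3.58.1, other scalings and filters, each library left out, SCC 2 and SCC 5 alone, the receptor signal as covariate and subtraction of background. The test was checked on simulated data.

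The members, lists and alternatives were chosen with earlier results of these data known. Every tested member is named; 1 untested gene is counted in the family sums but is otherwise not reported here; of the others, the 5 with most reads in each group; of the lists, up to 4 called genes by smallest p. Intervals cover counting error only.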

Additional observations from a re-analysis of the deposited data

Results flagged for a closer look

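Single libraries stood apart from the other 4 of their group for 10 genes, by a gap to the nearest value that was large against the range of the group. There were 11 such values in 58 groups of 5 looked at. The rule flags about 1 in 20 groups by chance only for independent, normally distributed values. Low CPM values from the same libraries need not be so, and whether 11 exceeds chance was not tested. In SCC 1, Hoxa3 had 102 CPM against 42.9 in the nearest SCC library, Hoxb2 had 37.7 CPM against 20.9, Hoxa10 had 57.5 CPM against 11.6, and Hoxd9 had 14.1 CPM against 3.30. In normal 2, Hoxb1 had 13.7 CPM against 3.43 in the nearest normal library, Hoxb3 had 39 CPM against 11.8, and Hoxb8 had 10.9 CPM against 3.58. In normal 5, Hoxa2 had 17.8 CPM against 2.64, Hoxa10 had 6.86 CPM against 0.386, Hoxc11 had 3.43 CPM against 0.733, and Hoxd12 had 4.80 CPM against 0.440. Hoxa10 stood apart in both groups. Normal 5 held 325 Hox reads in all, so that its values rest on few reads each.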

How the results depend on the processing

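Across 307 fold changes of tested Hox genes under the alternatives, 261 kept their direction and side of the threshold, 5 lost the call, all of Hoxa3, 23 gained one and 18 turned round. Those that turned round were Hoxb4 with no minimum on reads (-0.17), on leaving out normal 2 or SCC 1 (-0.13 to 0.51 over single libraries left out) and with the homeobox subtraction (-0.0023). With SCC 2 and SCC 5 as the tumour group they were Hoxa2 (-0.12), Hoxa4 (-0.40), Hoxa7 (-0.23), Hoxb4 (-0.97), Hoxb6 (-0.84) and Hoxc8 (-0.22). With the receptor covariate they were Hoxa2 (-2.80), Hoxa4 (-0.43), Hoxa7 (-0.44), Hoxb1 (-1.23), Hoxb4 (-1.22), Hoxb6 (-2.42), Hoxb8 (-0.20) and Hoxc8 (-1.76). The cause was not tested.

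Hox genes higher in SCC numbered 1 with all libraries and TMM, 2 with upper-quartile factors, 14 of 39 with no minimum on reads (2 lower), 13 of 34 with 1 CPM in 5 libraries (1 lower), 21 with DESeq2, 8 with limma-voom, and 0 with SCC 2 and SCC 5, with the covariate and with the homeobox subtraction, an alternative chosen after seeing the data. Leaving out 1 library gave 0 to 8 higher and 0 to 1 lower. There were 8 of 22 without normal 2, 6 of 19 without normal 5 and 4 of 17 without SCC 2. There were 3 without SCC 3, SCC 4 or SCC 5, 2 without SCC 1 or normal 3, and 0 without normal 4. Over all genes, 1645 higher and 1146 lower of 13203 became 5470 and 2072 of 22919 with no minimum, and 3551 higher of 17275 with 1 CPM. There were 1962 higher of 13203 with upper-quartile factors, 6287 of 22832 with DESeq2, and 3259 higher and 2766 lower of 13203 with limma-voom. With SCC 2 and SCC 5 they were 592 and 738 of 14305, and with the covariate 457 and 366 of 13203. After the receptor subtraction 969 of 11601 were higher, and after the homeobox subtraction 582 and 629 of 10545. Genes called higher were 2184 of 14919 without normal 2, 2207 of 14871 without normal 5 and 1719 of 13875 without normal 4. The median log2 fold change of all genes was 0.07 with TMM and 0.27 with upper-quartile factors. No paired analysis was made, since the tumours came from treated mice and the normal lung from untreated mice. The untested members described held 14 to 117 reads each over SCC and 0 to 43 over normal lung, and did not pass the minimum on reads.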
